A study of Mus musculus with 9 samples.

Results

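The effect of P7C3-A20 on the bleeding brain was read from 6 of the 9 libraries of the study, 3 from mice with intracerebral haemorrhage (ICH) and 3 from mice with ICH that received the compound. These libraries were picked by their labels, as the count columns of ICH+P7C3-A20 1 to 3 and of ICH 1 to 3, and no measured value entered that rule. All 9 animals were C57BL/6 wild-type mice, and brain was sampled 72 hours after surgery or bleeding. The ICH group carried a haemorrhage and was given no P7C3-A20. The ICH+P7C3-A20 group also carried a haemorrhage and was given the compound, and a sham group of 3 mice had neither. The labels give no size of the haemorrhage, and whether it was equal in ICH and ICH+P7C3-A20 mice was not tested. Each library came from a separate mouse that was allotted to its group at random, per the series text. The labels name no dose, route, vehicle, brain region, sex or age, and no library of sham mice given the compound was analysed here, so the effect of P7C3-A20 on uninjured brain was not measured.

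P7C3-A20 is an aminopropyl carbazole, derived from a compound that was found in a screen for increased formation of hippocampal neurons. Its family has been linked to Nampt, which makes nicotinamide mononucleotide and sets the pace of NAD recycling. After a brain haemorrhage, lysed red cells release haem and iron, resident microglia and incoming monocytes clear the clot, astrocytes around it become reactive, and neurons near it are lost. Haem is opened by haem oxygenase 1, the freed iron is stored in ferritin, and the complement, interferon and NF-kappaB pathways run in the cells that respond. In RNA from whole tissue, fewer cells of a type and less RNA per cell cannot be told apart, and this holds for every result that follows.

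The libraries totalled 51537047 to 63324728 estimated counts. Levels are given as CPM, counts scaled to a common library size after TMM normalization, and 3 counts in a library equal 0.0474 to 0.0582 CPM, a limit that covers counting error only. The neuronal gene Rbfox3 lay between 117 and 229 CPM, the astrocyte glutamate transporter gene Slc1a2 between 1356 and 2574 CPM and the myelin gene Mbp between 2843 and 7622 CPM in all 9 libraries. On the first principal component, which held 40.7% of the variance, the 3 ICH libraries scored 71.8 to 80.5 and the sham libraries -81.1 to -76.2. Scores of the treated libraries 1, 2 and 3 were -34.5, 17.4 and 18.5. ICH+P7C3-A20 1 also lay apart on the second component (12.2% of the variance), at -87.4, and was the treated library farthest from the ICH mean in 42 of the 51 gene lists described here. Mitochondrially encoded transcripts, which can vary with RNA quality, took 14.3%, 15.5% and 9.74% of the counts in ICH 1, 2 and 3 and 17.1%, 10.4% and 18.5% in ICH+P7C3-A20 1, 2 and 3. With these genes left out of the fit described below, 530 genes were called higher and 1424 lower, against 590 and 1324 with them. A part of RNA quality in the results was not tested.

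Brain that had received P7C3-A20 held less RNA of most listed interferon, class I, lysosomal, reactive astrocyte and mitotic genes than untreated ICH brain, and more RNA of some synaptic and ion channel genes. Of 21900 tested genes edgeR called 1914 (8.74%) at a Benjamini-Hochberg adjusted p under 0.05, 1324 of them lower (6.05%) and 590 higher (2.69%) with the compound, so that 30.8% of the calls were higher. The lower calls were also the larger ones, with a median log2 change of -1.05 against 0.64 for the higher calls, and 817 genes (3.73% of those tested) were both called and changed at least 2-fold, 710 lower and 107 higher. The median over all tested genes was -0.01. CPM of the 3 treated and the 3 untreated libraries did not overlap for 7353 genes (33.6%), 4049 lower (18.5%) and 3304 higher (15.1%), and all 1914 called genes were among them. With limma on log2(FPKM + 1), a scale that takes gene length into account and damps low genes, 214 genes were higher and 1397 lower (13.3% higher), and with limma on log2(FPKM + 0.1) 186 were higher and 1064 lower (14.9% higher). With limma on quantile-normalized log2(FPKM + 1) 760 genes were higher and 1491 lower (33.8% higher). More genes were lower than higher in each of these fits.

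**Figure D1:**
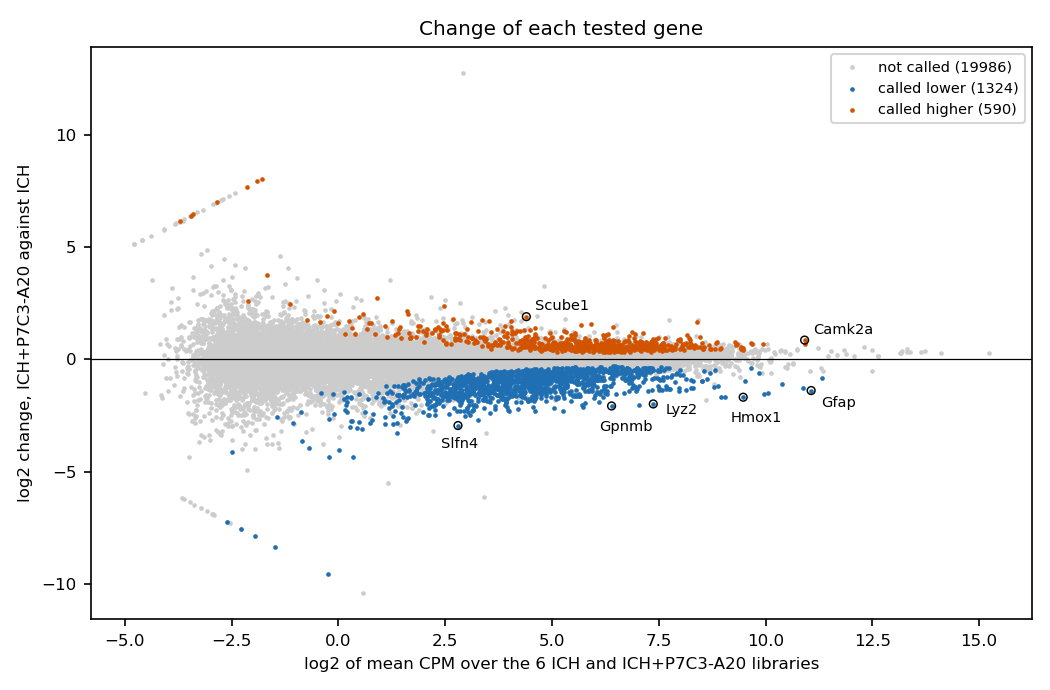
Log2 change of each of the 21900 tested genes in ICH+P7C3-A20 against ICH (vertical axis) by the log2 of its mean CPM over those 6 libraries (horizontal axis), with 590 genes called higher in orange, 1324 called lower in blue and the rest in grey. The called lower genes reach farther from 0 than the called higher ones (medians -1.05 and 0.64), and the slanted rows of points at both ends are genes at 0 in all 3 libraries of a group, whose fitted changes are no bounds.

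Each library carried weight in these counts. edgeR called 86 genes higher and 597 lower without ICH 1, 106 and 465 without ICH 2, and 79 and 592 without ICH 3. Leaving out ICH+P7C3-A20 1 gave 130 higher and 683 lower genes, leaving out ICH+P7C3-A20 3 gave 364 higher and 1096 lower, and without sham 3, which enters the contrast only through the shared spread, scaling and filter, 968 were higher and 1727 lower. Without ICH+P7C3-A20 2 there were 741 higher and 1213 lower genes, and without sham 1 398 higher and 1214 lower. More genes were called lower than higher in every one of the 9 left-out fits, and 673, 556 and 667 of the genes called without ICH 1, 2 and 3 were also called with all libraries. In the following, an adjusted p followed by "without" is that of the edgeR fit that leaves out the named library, and it is given where the call of a gene ended.

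**Figure D2:**
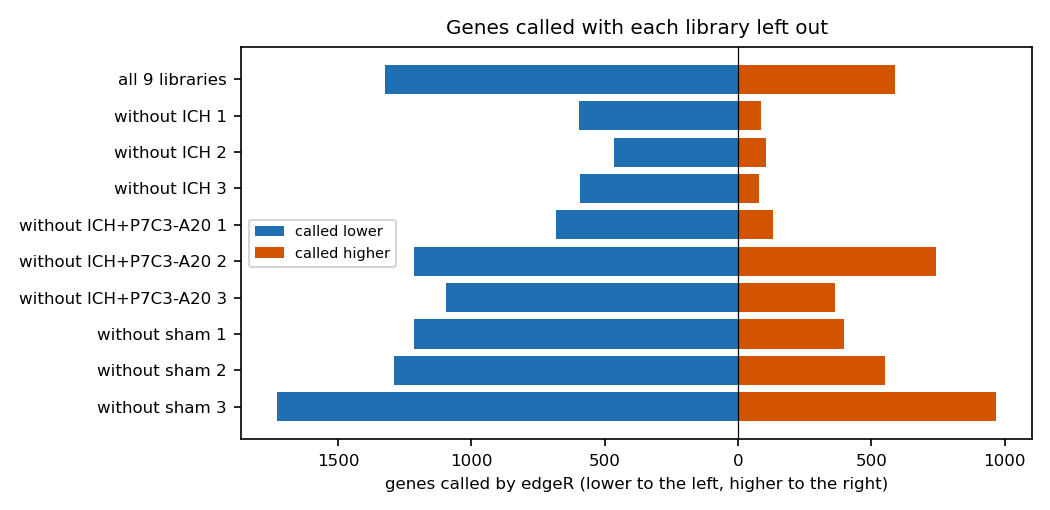
Number of genes called by edgeR (horizontal axis, lower to the left and higher to the right) with all 9 libraries and with each library left out in turn. With any 1 ICH library or ICH+P7C3-A20 1 left out, 79 to 130 higher and 465 to 683 lower genes were called, against 590 and 1324 with all libraries.

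The 12 lowest log2 changes are given first, from called genes that average 2 FPKM or more in either group. The Schlafen gene Slfn4, found in myeloid cells, stood at 4.58, 18.5 and 13.9 CPM in ICH 1, 2 and 3 and at 0.500, 1.74 and 2.52 CPM in ICH+P7C3-A20 1, 2 and 3, a 7.73-fold lower level (log2 change -2.95 ± 0.60, edgeR adjusted p = 0.0162). Untreated values ranged widely, and the lowest of them was still above the highest treated one. Falls of a like size were those of Zbp1, a sensor of nucleic acids (-2.69 ± 0.38), the monocyte chemokine gene Ccl7 (-2.64 ± 0.45), Ms4a4c, a membrane protein gene (-2.56 ± 0.49), Oasl1 (-2.50 ± 0.45), Phf11b (-2.48 ± 0.53), the monocyte surface gene Ly6c2 (-2.42 ± 0.64), Plac8 (-2.40 ± 0.59), the class II gene H2-Aa (-2.40 ± 0.34), the apolipoprotein gene Apoc2 (-2.36 ± 0.41), the invariant chain gene Cd74 (-2.32 ± 0.43) and the antiviral gene Mx1 (-2.31 ± 0.35), all on the log2 scale with edgeR adjusted p up to 0.0423. The values of Ly6c2, Phf11b and Ms4a4c are uncertain, since each has close copies in the mouse genome between which reads could have been split. By edgeR adjusted p the calls ended for Slfn4 at 0.0653 without ICH 2 and 0.0562 without ICH 3, for Ms4a4c at 0.0568 without ICH 2, for Phf11b at 0.0796 without ICH 2 and 0.0591 without ICH 3, for Apoc2 at 0.0576 without ICH 2, for Cd74 at 0.0502 without ICH 2 and 0.0779 without ICH+P7C3-A20 1, for Plac8 at 0.0552 to 0.12 without ICH 1, 2 or 3 or ICH+P7C3-A20 1 or 3 and for Ly6c2 at 0.0593 to 0.174 without ICH 1, 2 or 3, ICH+P7C3-A20 1 or 2 or sham 1. Leaving out ICH+P7C3-A20 3 moved the log2 change to -3.21 for Phf11b and to -3.06 for Ly6c2.

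The 8 lower calls with the smallest p under the same rule follow. S1pr3, a receptor for sphingosine 1-phosphate, read 76.5, 77.2 and 72.2 CPM in ICH and 18, 26.8 and 26.9 CPM in ICH+P7C3-A20 (ENSMUSG00000067586, chr13:51408639-51422797 on GRCm38, the build that the deposited positions match), a log2 change of -1.65 ± 0.17 (edgeR adjusted p = 0.00508). The mechanically gated channel gene Piezo1 read 38.3, 39.3 and 37.5 CPM and 15.9, 19.2 and 18.5 CPM (-1.10 ± 0.11). In both, all treated animals lay far below all untreated ones and above the sham means of 7.27 ± 1.06 and 6.54 ± 0.180 CPM (SD, n = 3). The others were the lysosomal protease gene Ctsc (-1.53 ± 0.15), the proton pump subunit gene Tcirg1 (-1.22 ± 0.13), the galectin gene Lgals1 (-1.71 ± 0.18), the matrix protein gene Tgfbi (-2.12 ± 0.22), the high-affinity IgG receptor gene Fcgr1 (-1.81 ± 0.21) and the cyclin D1 gene Ccnd1 (-1.33 ± 0.15), with edgeR adjusted p up to 0.00596. These 8 calls held with each of the 9 libraries left out in turn.

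By the same rule 12 genes with the largest rises were taken, and the calls of 10 of them ended when 1 library was left out. Scube1, a secreted protein gene, read 6.93, 11.8 and 8.04 CPM in ICH and 58.1, 21.0 and 20.8 CPM in ICH+P7C3-A20, 3.72-fold above ICH (a log2 change of 1.9 ± 0.44 at an edgeR adjusted p of 0.0288). The first treated library stood far above the other 2, and without it the log2 change was 1.22. Others were the neuropeptide gene Vip (1.78 ± 0.45), the RNA transporter gene Sidt1 (1.69 ± 0.32), the chemokine gene Ccl21d (1.69 ± 0.34, uncertain because of near-identical copies), the pentraxin receptor gene Nptxr (1.68 ± 0.40, 1.04 without ICH+P7C3-A20 1), the synapse organiser gene Cbln2 (1.67 ± 0.25), the nuclear receptor gene Nr4a1 (1.56 ± 0.27), the exchange factor gene Rasgrf2 (1.52 ± 0.34), the BMP antagonist gene Nog (1.47 ± 0.33), the somatostatin receptor gene Sstr4 (1.45 ± 0.38), the cholecystokinin receptor gene Cckbr (1.45 ± 0.36, 0.91 without ICH+P7C3-A20 1) and the syntaxin gene Stx1a (1.42 ± 0.32). Their edgeR adjusted p reached 0.043. Only the calls of Cbln2 and Nr4a1 held in all 9 left-out fits among these 12. The adjusted p of the others was 0.0596 to 0.119 without ICH 1, 2 or 3 or ICH+P7C3-A20 1 for Scube1, 0.054 to 0.144 without ICH 1, 2 or 3 or ICH+P7C3-A20 1 or 3 for Vip, 0.0585 without ICH 1 and 0.0567 without ICH 3 for Sidt1, 0.0678 without ICH 1 and 0.0565 without ICH 2 for Ccl21d and 0.051 to 0.136 without ICH 1 or 3, ICH+P7C3-A20 1 or sham 1, 2 or 3 for Nptxr. It was 0.0624 to 0.105 without ICH 1, 2 or 3 or ICH+P7C3-A20 1 for Rasgrf2, 0.0713 to 0.0943 without ICH 1, 2 or 3 or ICH+P7C3-A20 1 for Nog, 0.0582 to 0.162 without ICH 1, 2 or 3, ICH+P7C3-A20 1 or 3 or sham 1 for Sstr4, 0.102 to 0.122 without ICH 1, 2 or 3 or ICH+P7C3-A20 1 for Cckbr and 0.0739 to 0.103 without ICH 1, 2 or 3 or ICH+P7C3-A20 1 for Stx1a.

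Other rises were taken for their small p under the same rule, with log2 changes up to 1.41. Such a choice favours genes with even values between animals and calls that hold when a library is left out. The gene of the actin-modifying enzyme Mical2 read 74.0, 92.6 and 94.2 CPM in ICH and 222, 194 and 166 CPM in ICH+P7C3-A20 (log2 change 1.16 ± 0.15, edgeR adjusted p = 0.00634). Cadps2, which primes dense-core vesicles for release, read 16, 10.8 and 12.9 CPM and 39.7, 38.0 and 28.0 CPM (1.41 ± 0.20). Every treated animal was above every untreated one by a wide margin in both. Rims1, a scaffold of the presynaptic active zone, went from 83.0 ± 8.03 to 159 ± 25.4 CPM (0.94 ± 0.14), the kinase gene Camk1g from 16.5 ± 1.66 to 28.0 ± 2.17 CPM (0.77 ± 0.11), R3hdm1 from 237 ± 29.4 to 469 ± 88.1 CPM (0.99 ± 0.15), Btbd8 from 63.5 ± 0.273 to 100 ± 8.72 CPM (0.66 ± 0.09) and Dbpht2 from 30.4 ± 0.619 to 51.1 ± 5.60 CPM (0.75 ± 0.11, SD, n = 3). Their edgeR adjusted p was at most 0.00698, and these 7 calls held in all 9 left-out fits.

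The genes were also grouped into 51 lists of pathways and cell types, drawn up with earlier results of these data known, which hold 871 distinct genes. Of these 858 were tested, and edgeR called 269 lower and 33 higher with the compound. In 32 lists the called members were all lower, in 6 all higher, in 5 they went both ways, and in 8 no member was called.

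**Figure D3:**
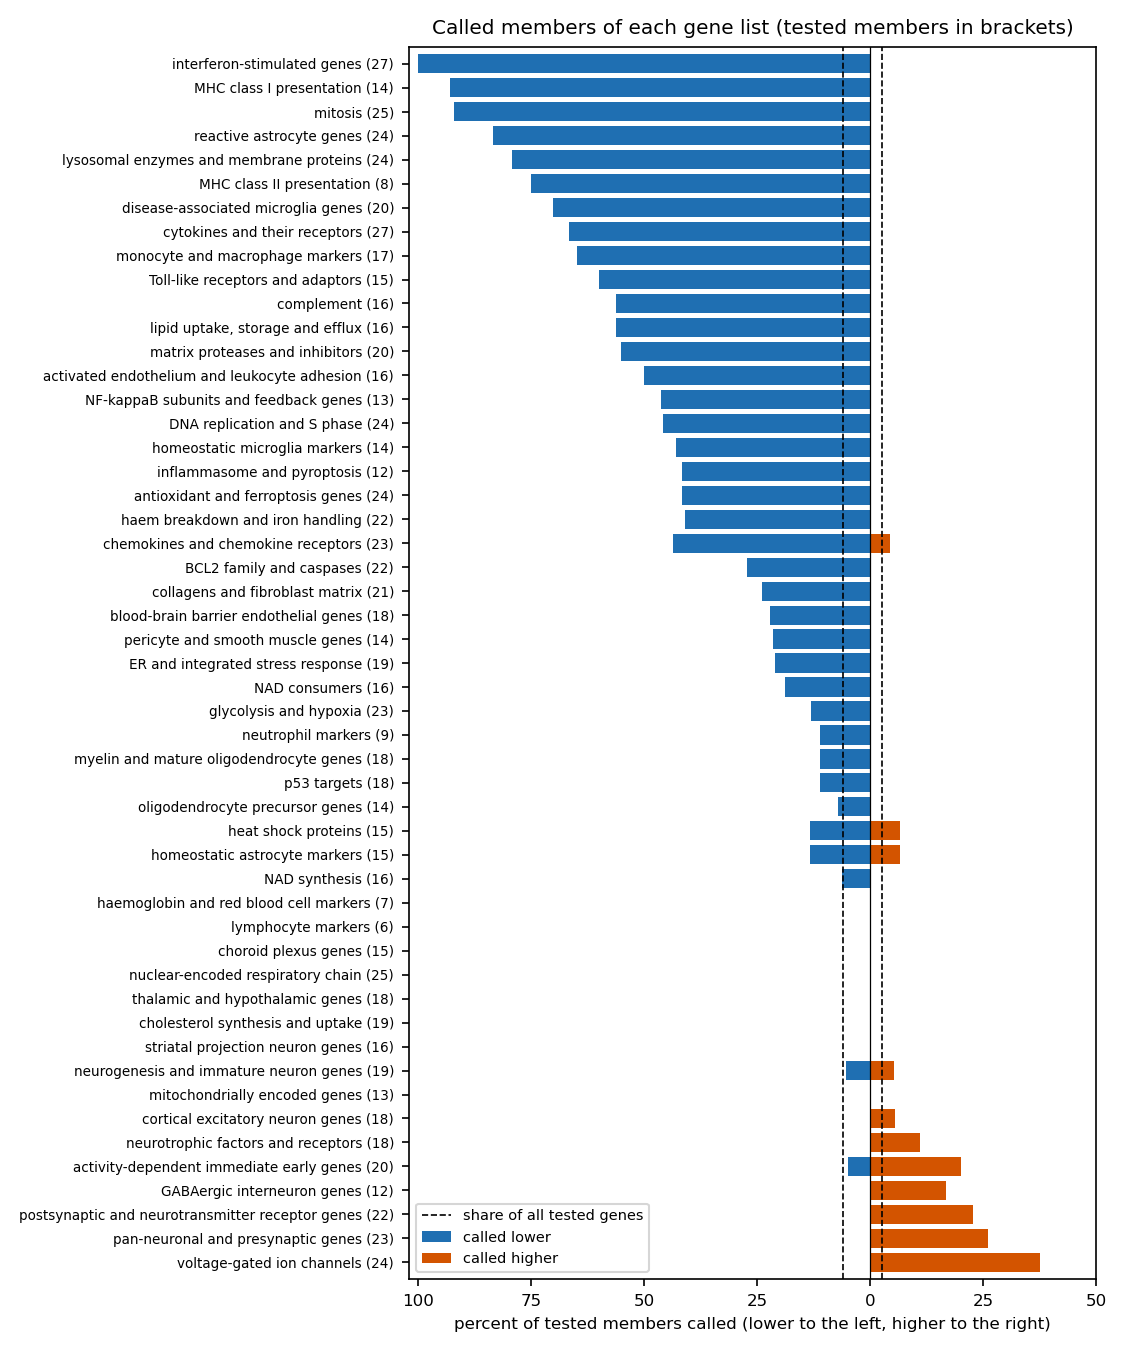
Percent of the tested members of each list that edgeR called lower (blue, to the left) or higher (orange, to the right) in ICH+P7C3-A20, with the number tested in brackets and dashed lines at the shares of all tested genes, 6.05% lower and 2.69% higher. Interferon, class I, mitosis and reactive astrocyte lists had the largest shares called lower (27 of 27, 13 of 14, 23 of 25 and 20 of 24), and ion channel, presynaptic and postsynaptic lists the largest shares called higher (9 of 24, 6 of 23 and 5 of 22).

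Every interferon-stimulated gene of the list was lower in brain of mice given P7C3-A20. These genes are switched on by type I and type II interferons, and many of their products block viral RNA or tag proteins. edgeR called all 27 members lower, against 6.05% of all tested genes, with a median log2 change of -1.73. Oasl2, an oligoadenylate synthetase-like gene, read 31.7, 74.0 and 57.2 CPM in ICH 1, 2 and 3 and 11.2, 11.3 and 13.9 CPM in ICH+P7C3-A20 1, 2 and 3 (ENSMUSG00000029561, chr5:114896936-114912234; log2 change -2.16 ± 0.26, edgeR adjusted p = 0.00596). The immunity-related GTPase gene Irgm1 read 33.8, 58.8 and 51.2 CPM and 12.8, 15.8 and 16.8 CPM (-1.66 ± 0.20, edgeR adjusted p = 0.00596). In both, ICH 1 was the lowest untreated library and yet above all treated ones, which lay close together. Zbp1 read 7.20, 22.7 and 19.8 CPM and 2.04, 2.63 and 3.02 CPM, and Ifit2, which binds foreign RNA, had a log2 change of -1.33 ± 0.19 (edgeR adjusted p = 0.00676).

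The interferon genes of treated brain stood near the level of sham brain. As the mean log2 CPM of the list minus its ICH mean, sham libraries stood at -1.69, -1.62 and -1.47, ICH libraries at -0.65, 0.48 and 0.18 and ICH+P7C3-A20 libraries at -2.00, -1.56 and -1.56. The treated mean was below the sham mean for 19 of the 27 genes, and for 20 of the 27 the treated and sham ranges overlapped, a description with no test. Oasl2 was at 20.7 ± 2.99 CPM in sham and 12.2 ± 1.54 CPM in treated brain (SD, n = 3), with no overlap between the libraries. With 1 library left out edgeR called 18 to 27 of the list lower, fewest without ICH 2.

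The stretches before the start sites of 3 of these genes are shown because members of the list fell together and carry the interferon-stimulated response element, a short site found before many such genes. They are the 250 bases before the RefSeq start (GRCm38.p6), 5′ to 3′ on the gene's strand, and were taken from the called list members with the smallest p whose stretch holds a match and no annotated exon. Capitals mark matches on either strand to its core, which is GAAA, any 2 bases and GAAA again, and none of these overlapped another of the motifs searched.
Cxcl10 (chr5:92348890-92349139, minus strand): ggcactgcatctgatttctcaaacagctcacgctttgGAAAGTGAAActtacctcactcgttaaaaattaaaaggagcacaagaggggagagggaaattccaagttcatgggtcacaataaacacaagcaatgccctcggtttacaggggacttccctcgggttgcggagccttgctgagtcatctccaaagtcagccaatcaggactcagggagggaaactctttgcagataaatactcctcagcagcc
Rsad2 (chr12:26456453-26456702, minus strand): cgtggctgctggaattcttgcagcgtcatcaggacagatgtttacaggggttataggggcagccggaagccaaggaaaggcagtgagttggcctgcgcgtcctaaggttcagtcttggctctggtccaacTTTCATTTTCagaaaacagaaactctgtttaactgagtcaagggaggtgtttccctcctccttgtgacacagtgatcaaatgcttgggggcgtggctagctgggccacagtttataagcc
Oas1a (chr5:120907526-120907775, minus strand): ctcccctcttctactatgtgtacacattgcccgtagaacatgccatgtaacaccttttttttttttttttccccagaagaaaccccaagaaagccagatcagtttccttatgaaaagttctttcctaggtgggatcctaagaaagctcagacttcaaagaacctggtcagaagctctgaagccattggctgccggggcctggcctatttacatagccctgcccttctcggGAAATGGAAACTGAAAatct
The match ended 110 bases before the start in Rsad2, where it lies on the other strand, and 4 bases before it in Oas1a, where 2 matches overlap, and it lay farther upstream in Cxcl10. Within windows from 250 bases before to 50 bases after the start, 15 of the 21 list members with a window held the letters (71.4%), against 540 of 14134 tested genes (3.82%), 8.32% of the genes called lower and 3.54% of those called higher. A match is a description of the letters and not evidence of binding. The chemokine gene Cxcl10 read 18.6, 30.8 and 28.3 CPM in ICH and 5.71, 3.86 and 6.57 CPM in ICH+P7C3-A20 (log2 change -2.27 ± 0.33, edgeR adjusted p = 0.00676). Rsad2, which encodes viperin, changed by -2.02 ± 0.30 and the oligoadenylate synthetase gene Oas1a by -2.19 ± 0.39 (edgeR adjusted p 0.00682 and 0.0101), the latter uncertain because mouse Oas1 genes are close copies.

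Genes of antigen presentation were lower too. Class I molecules show peptides from inside the cell to CD8 T cells, and edgeR called 13 of 14 class I genes lower (median log2 change -1.48). Tap1, a subunit of the transporter that loads peptides, read 14.8, 21.7 and 22.3 CPM in ICH and 5.89, 6.77 and 6.84 CPM in ICH+P7C3-A20 (-1.59 ± 0.20, edgeR adjusted p = 0.00596). The class I transactivator gene Nlrc5 changed by -2.27 ± 0.30, H2-D1 by -1.49 ± 0.21 and H2-K1 by -1.43 ± 0.23 (edgeR adjusted p up to 0.00739), and all 4 calls held in every left-out fit. H2-D1 and H2-K1 share much sequence, so reads could have been split between them. Class II molecules are borne by microglia, macrophages and dendritic cells, and 6 of 8 class II genes were lower (median -1.86). H2-Eb1 read 13.4, 18.7 and 11.5 CPM in ICH and 2.23, 2.87 and 3.85 CPM in ICH+P7C3-A20 (-2.28 ± 0.30, edgeR adjusted p = 0.00634), against 0.968 ± 0.320 CPM in sham (SD, n = 3). H2-Aa and H2-Ab1 changed by -2.40 ± 0.34 and -2.31 ± 0.35, and Ctss, the protease that trims the invariant chain, by -1.26 ± 0.23 (edgeR adjusted p up to 0.0114; Ctss, 0.0519 without ICH 2). Lower calls numbered 8 without ICH 2 in class I, and 3 without ICH 2 in class II.

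Chemokines that draw monocytes, and receptors for tumour necrosis factor and interleukins, were lower with the compound. Of 23 chemokine and receptor genes 10 fell and 1 rose (median log2 change -1.61). Ccl2, the main monocyte attractant, read 17.9, 23.8 and 21.1 CPM in ICH and 3.15, 4.0 and 6.53 CPM in ICH+P7C3-A20 (-2.20 ± 0.32, edgeR adjusted p = 0.00676). It was nearly silent in sham, at 0.307, 0.166 and 0.106 CPM, so that treated brain held an intermediate level. Cxcl16 and Ccl12 changed by -1.51 ± 0.22 and -1.80 ± 0.30 (edgeR adjusted p 0.00676 and 0.00848). The gene that rose, singled out after its values were seen, was the neuronal chemokine gene Cx3cl1 (0.47 ± 0.11, edgeR adjusted p = 0.0301, and 0.0632 to 0.129 without ICH 1, 2 or 3 or ICH+P7C3-A20 1 or 3). Lower chemokine calls numbered 6 without ICH 2.

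Of 27 cytokine and cytokine receptor genes 18 fell and none rose (median -1.19). Csf1, the growth factor of microglia and macrophages, read 105, 114 and 98.0 CPM in ICH and 32.1, 41.3 and 53.7 CPM in ICH+P7C3-A20 (-1.32 ± 0.20, edgeR adjusted p = 0.00684). The receptor genes Tnfrsf1a, Tnfrsf1b and Il4ra changed by -1.27 ± 0.20, -1.47 ± 0.26 and -1.47 ± 0.24 (edgeR adjusted p up to 0.00924). These 4 calls held in every left-out fit. Interleukin-1 beta itself was scarce: Il1b read 1.35, 3.30 and 2.03 CPM in ICH and 0.104, 1.08 and 0.501 CPM in ICH+P7C3-A20, and its change of -1.96 ± 0.81 did not pass the test (edgeR adjusted p = 0.165; -2.86 at 0.0805 without ICH+P7C3-A20 2), although the groups did not overlap. Lower cytokine calls numbered 9 without ICH 1, 8 without ICH 2 and 11 without ICH+P7C3-A20 1.

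Sensors upstream of these signals moved the same way. Toll-like receptors bind microbial and cell-derived ligands and signal through MYD88, and 9 of 15 genes of the group fell (median -0.99). Calls numbered 3 without ICH 1 or 3, 1 without ICH 2 and 4 without ICH+P7C3-A20 1. Tlr13 read 25.3, 33.2 and 29.2 CPM in ICH and 9.16, 11.6 and 13.7 CPM in ICH+P7C3-A20 (-1.34 ± 0.21, edgeR adjusted p = 0.00731), Myd88 changed by -1.0 ± 0.19 (0.0123, and 0.053 without ICH 2) and Tlr2 by -1.58 ± 0.31 (0.014, and 0.0622 without ICH 2). Inflammasomes activate caspase-1, which matures interleukin-1 beta, and 5 of 12 such genes fell, and calls numbered 2 without ICH 1 or 2 or ICH+P7C3-A20 1 and 3 without ICH 3. Their adaptor gene Pycard changed by -1.15 ± 0.20 and Casp1 by -1.51 ± 0.31 (edgeR adjusted p 0.00974 and 0.0165; the latter 0.0624 to 0.0688 without ICH 1 or 2 or ICH+P7C3-A20 1).

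NF-kappaB is held in the cytoplasm by inhibitors whose genes it induces, so that subunits and inhibitors are among its own targets. Of 13 such genes 6 fell and none rose (median -0.62), and calls numbered 3 without ICH 1 and 2 without ICH 2. Nfkb1 read 36.3, 41.1 and 42.1 CPM in ICH and 21.4, 24.1 and 25.6 CPM in ICH+P7C3-A20 (-0.75 ± 0.11, edgeR adjusted p = 0.0068). The coactivator gene Bcl3 fell further, from 19.5 ± 2.52 to 6.44 ± 2.38 CPM (SD, n = 3; -1.60 ± 0.29, edgeR adjusted p = 0.0102), and Nfkb2 changed by -1.04 ± 0.19 (0.0108, and 0.0506 without ICH 2). The stretch before the start of the inhibitor gene Nfkbia, whose change was -0.62 ± 0.14 (edgeR adjusted p = 0.0229, and 0.0508 to 0.104 without ICH 1, 2 or 3 or ICH+P7C3-A20 1 or 2), shows a match to the kappaB motif in capitals, ending 19 bases before the start.
Nfkbia (chr12:55492648-55492897, minus strand): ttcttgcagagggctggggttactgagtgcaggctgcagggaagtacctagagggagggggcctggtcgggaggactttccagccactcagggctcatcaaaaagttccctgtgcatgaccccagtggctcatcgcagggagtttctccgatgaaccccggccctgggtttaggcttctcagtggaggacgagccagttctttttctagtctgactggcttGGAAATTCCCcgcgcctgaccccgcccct
In this list 7 of 10 genes with a window held the kappaB motif on either strand (70.0%), against 12.1% of all 14134 genes with a window, 14.9% of those called lower and 14.6% of those called higher. Of the immediate early genes, whose calls were mostly higher, 8 of 16 held it (50.0%).

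Complement genes were lower with the compound. C1q opens the classical pathway and tags cell debris and synapses, and the receptors C3AR1 and the CR3 integrin read the later products. Of 16 complement genes 9 fell and none rose (median -1.26). C1qa read 282, 293 and 292 CPM in ICH and 81.2, 115 and 151 CPM in ICH+P7C3-A20 (ENSMUSG00000036887, chr4:136895917-136898803; -1.32 ± 0.20, edgeR adjusted p = 0.00731). The 3 untreated animals differed little, the treated ones varied more, and both lay above sham at 31.2 ± 6.14 CPM (SD, n = 3). C1qc, C3ar1 and the integrin gene Itgb2 changed by -1.30 ± 0.20, -1.55 ± 0.25 and -1.59 ± 0.24 (edgeR adjusted p up to 0.00765), and their calls held in every left-out fit. Lower calls over the list numbered 6 to 11 in the left-out fits.

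**Figure D4:**
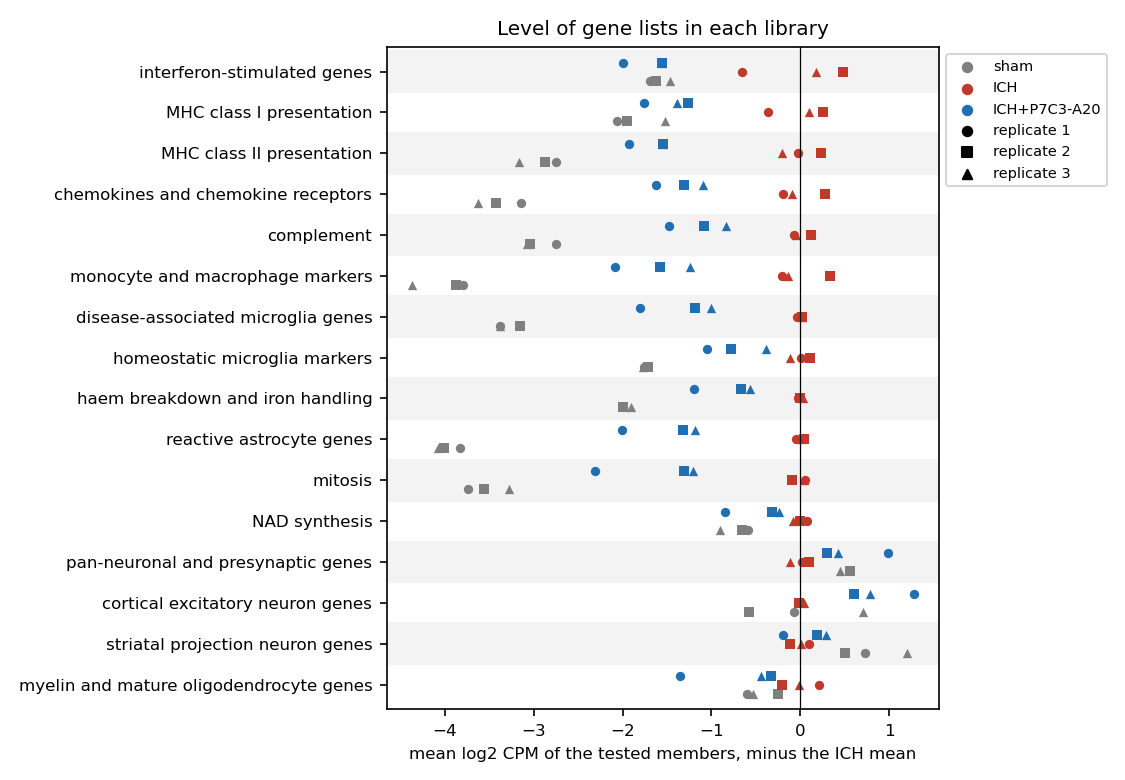
Level of 16 gene lists in each of the 9 libraries, as the mean log2 CPM of the tested members minus the mean of the 3 ICH libraries (horizontal axis), with colour for the group and shape for the replicate number. Treated libraries lie below all ICH libraries in the immune, reactive astrocyte and mitosis lists, with ICH+P7C3-A20 1 lowest, and treated libraries exceed all ICH libraries in the cortical list.

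Genes listed as markers of the phagocytes were lower too, though some are shared with other cell types. Vim and Cd44 are also in the reactive astrocyte list. Fn1 is also in the fibroblast list and Vcan in the oligodendrocyte precursor list, so the summed level cannot be assigned to phagocytes alone. Of 17 monocyte and macrophage markers 11 fell and none rose (median -1.75), and their summed level was 149, 151 and 129 CPM in sham, 1692, 1975 and 1767 CPM in ICH and 413, 666 and 760 CPM in ICH+P7C3-A20, with no tested member at 0 in a whole group. The lysozyme gene Lyz2 read 241, 315 and 238 CPM in ICH and 39.7, 67.4 and 92.5 CPM in ICH+P7C3-A20 (ENSMUSG00000069516, chr10:117277331-117282321; 3.97-fold lower, -1.99 ± 0.26, edgeR adjusted p = 0.00634). Arg1, an enzyme of repair-type macrophages, changed by -2.11 ± 0.33, the filament gene Vim by -1.69 ± 0.26 and the fibronectin gene Fn1 by -1.28 ± 0.21 (edgeR adjusted p up to 0.00764). These 4 calls held in every left-out fit, and list calls numbered 7 without ICH 2.

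Of 14 markers of resting microglia 6 fell and none rose (median -0.67). Fcrls read 228, 223 and 254 CPM in ICH and 57.7, 101 and 113 CPM in ICH+P7C3-A20 (-1.38 ± 0.22, edgeR adjusted p = 0.00739), Olfml3 changed by -1.20 ± 0.20 (0.00802) and the fractalkine receptor gene Cx3cr1 by -0.88 ± 0.16 (0.0104, and 0.0506 without ICH 2). Tmem119 read 57.4, 58.7 and 54.0 CPM and 26.3, 34.5 and 37.9 CPM, a change of -0.79 ± 0.20 (edgeR adjusted p = 0.0376), and the call ended at 0.0599 to 0.133 without ICH 1, 2 or 3 or ICH+P7C3-A20 1 or 2. Its treated values lay between sham, at 15.8 ± 4.80 CPM (SD, n = 3), and ICH without overlap. The summed level of the markers was 711 to 1033 CPM in sham, 2405 to 2666 CPM in ICH and 1094 to 1837 CPM in ICH+P7C3-A20. Lower calls in this list numbered 3 without ICH 1 and 2 without ICH 2.

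Genes that microglia switch on around damage were lower as well. Of 20 disease-associated microglia genes 14 fell and none rose (median -1.19), 10 to 18 in the left-out fits. Gpnmb, a glycoprotein of lipid-laden phagocytes, read 1.70, 1.45 and 1.49 CPM in sham, 99.9, 182 and 126 CPM in ICH and 19.5, 32.9 and 44.1 CPM in ICH+P7C3-A20 (-2.08 ± 0.29, edgeR adjusted p = 0.0064). Treated levels lay far below all untreated ones and far above sham. The integrin gene Itgax and the inhibitory receptor gene Lilrb4a, which has a close copy, changed by -1.9 ± 0.25 and -1.91 ± 0.27 and the cathepsin gene Ctsb by -1.10 ± 0.14 (edgeR adjusted p up to 0.00649). All 4 calls held in every left-out fit.

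Lysosomal and lipid-handling genes, which such cells use to digest red cells and myelin, were lower as well. Of 24 lysosomal genes 19 fell and none rose (median -1.04), 13 to 22 in the left-out fits. Ctsc read 111, 120 and 115 CPM in ICH and 30.1, 43.2 and 46.6 CPM in ICH+P7C3-A20 (-1.53 ± 0.15, edgeR adjusted p = 0.00508), and the cathepsin gene Ctsh changed by -1.20 ± 0.16 (0.00634). Ctsb, among the most abundant of them, went from 1812 ± 16.9 to 846 ± 160 CPM (SD, n = 3). Of 16 genes of lipid uptake, storage and efflux 9 fell and none rose (median -0.90). The scavenger receptor genes Msr1 and Cd36 changed by -1.75 ± 0.32 and -1.70 ± 0.31, the acid lipase gene Lipa by -1.12 ± 0.18 and Soat1, which esterifies cholesterol for storage, by -0.76 ± 0.11 (edgeR adjusted p up to 0.0114; Cd36, 0.0519 without ICH 2). Lower lipid calls numbered 3 without ICH 2.

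Markers of other blood cells gave few calls, to be read against the 6.05% of all tested genes called lower and the 2.69% called higher. Of 9 tested neutrophil markers edgeR called 1 lower, the receptor gene Csf3r (-0.98 ± 0.24, edgeR adjusted p = 0.0344; 0.0512 to 0.132 without ICH 1 or 2, ICH+P7C3-A20 1 or 2 or sham 1), and S100a8 changed by -1.01 ± 0.67 without passing the test. Their summed level was 58.7, 73.5 and 41.5 CPM in ICH and 23.8, 22.9 and 42.4 CPM in ICH+P7C3-A20, with overlap between the groups, and Cxcr2 was at 0 in all sham libraries. Of 6 tested lymphocyte markers edgeR called 0 (0 at an unadjusted p under 0.05 and 0 by DESeq2), and their summed levels, 37.6 to 46.0 and 27.2 to 46.8 CPM, overlapped.

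Some of the enzymes and carriers that deal with haem and iron were lower in treated brain. Hmox1, which opens the haem ring, read 4.94, 6.82 and 3.96 CPM in sham, 1246, 931 and 1085 CPM in ICH and 191, 349 and 471 CPM in ICH+P7C3-A20 (ENSMUSG00000005413, chr8:75093621-75100589). The treated animals lay 3.23-fold under the untreated ones (log2 change -1.69 ± 0.30, edgeR adjusted p = 0.00974), without overlap, and far above sham. Of 22 haem and iron genes 9 fell and none rose (median -0.71). The iron exporter of phagosomes Slc11a1 changed by -1.61 ± 0.21, ceruloplasmin (Cp), which oxidises iron for export, by -0.99 ± 0.15 and the ferritin light chain gene Ftl1, which has many near-identical processed copies and is uncertain, by -1.51 ± 0.29 (edgeR adjusted p up to 0.0136). The calls of Hmox1, Slc11a1 and Cp held in every left-out fit, and that of Ftl1 ended at 0.0548 without ICH 3. List calls numbered 4 without ICH 1 or 2 and 3 without ICH 3.

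Transcripts of red cells moved beside these genes. The 4 adult haemoglobin genes summed to 12.9, 28.2 and 9.05 CPM in sham, 44.6, 81.9 and 87.5 CPM in ICH and 13.9, 37.3 and 32.8 CPM in ICH+P7C3-A20, so that treated libraries lay below all untreated ones. Single genes did not pass the test: Hba-a1 changed by -1.37 ± 0.48 and Hbb-bs by -1.34 ± 0.47 (edgeR adjusted p 0.111 and 0.11), with reads that paralogues could have shared. Of the 7 tested red cell markers edgeR called 0 (5 at an unadjusted p under 0.05 and 5 by DESeq2, 4 of each lower), against 8.74% of all tested genes. Their part in the fall of the haem, iron and phagocyte genes was not tested.

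Most reactive astrocyte genes were lower in treated brain. Astrocytes around an injury enlarge their filaments and express a shared set of genes, partly under STAT3, and 20 of 24 such genes fell while none rose (median -1.51), 14 to 21 in the left-out fits. The filament gene Gfap read 153, 125 and 90.3 CPM in sham, 3455, 3141 and 2721 CPM in ICH and 823, 1208 and 1517 CPM in ICH+P7C3-A20 (ENSMUSG00000020932, chr11:102887336-102897200; -1.39 ± 0.25, edgeR adjusted p = 0.00974). The highest treated animal was well below the lowest untreated one, and all were far above sham. The protease inhibitor gene Timp1 read 46.2, 47.2 and 43.5 CPM and 9.02, 10.8 and 18.3 CPM (-1.84 ± 0.24, edgeR adjusted p = 0.00634), and Socs3, a feedback inhibitor induced by STAT3, changed by -1.70 ± 0.23 (0.00636). All 3 calls held in every left-out fit.

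Calls among markers of resting astrocytes went both ways. Of 15 edgeR called 2 lower and 1 higher (median -0.12). Both shares were above those of all tested genes, 6.05% lower and 2.69% higher. The summed level of these markers was 6168 to 7518 CPM in ICH and 7124 to 7838 CPM in ICH+P7C3-A20. The water channel gene Aqp4 read 491, 555 and 405 CPM and 224, 234 and 288 CPM (-0.96 ± 0.18, edgeR adjusted p = 0.0123; 0.0571 without ICH 2), and the folate enzyme gene Aldh1l1 changed by -0.83 ± 0.19 (0.0243; 0.0591 to 0.0883 without ICH 1, 2 or 3 or ICH+P7C3-A20 3). Slc1a2, which clears synaptic glutamate, rose from 1499 ± 195 to 2400 ± 282 CPM (SD, n = 3; 0.68 ± 0.15, edgeR adjusted p = 0.0228), and the call ended at 0.061 to 0.104 without ICH 1 or 3 or ICH+P7C3-A20 1 or 3. Lower calls numbered 1 without ICH 1 or 3 or ICH+P7C3-A20 3 and 0 without ICH 2, and higher calls 0 without ICH 1 or 3 or ICH+P7C3-A20 1 or 3 and 2 without sham 3.

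In the vessels, some adhesion genes of activated endothelium and a few barrier genes were lower. Of 16 activation genes 8 fell and none rose (median -0.94), and calls numbered 1 without ICH 1 or 2, 2 without ICH 3 and 3 without ICH+P7C3-A20 1. Vcam1, which binds leukocyte integrins, read 81.8, 91.6 and 85.7 CPM in ICH and 42.8, 52.4 and 53.4 CPM in ICH+P7C3-A20 (-0.80 ± 0.12, edgeR adjusted p = 0.00682), a call that held in every left-out fit. P-selectin (Selp), on which leukocytes roll, read 10.3, 13.4 and 8.55 CPM and 1.67, 1.92 and 3.49 CPM (-2.18 ± 0.46, edgeR adjusted p = 0.0179; 0.0589 to 0.0751 without ICH 1 or 2 or ICH+P7C3-A20 1), and Icam1 changed by -1.57 ± 0.33 (0.0178; 0.0588 to 0.0652 without ICH 1, 2 or 3). Of 18 barrier genes 4 fell, all taken by the naming rule: the glucose carrier gene Slc2a1 (-0.54 ± 0.10; 0.0614 without ICH 2), Pecam1 (-0.77 ± 0.16; 0.0642 without ICH 1 and 0.0629 without ICH 2), Cdh5 (-0.81 ± 0.19; 0.063 to 0.0956 without ICH 1, 2 or 3 or ICH+P7C3-A20 1 or 2) and Cldn5 (-1.04 ± 0.28; 0.0501 to 0.157 without ICH 1, 2 or 3, ICH+P7C3-A20 1, 2 or 3 or sham 2). Their edgeR adjusted p with all libraries was 0.0121, 0.0161, 0.0262 and 0.0448, and lower barrier calls numbered 1 without ICH 1, 0 without ICH 2 and 2 without ICH 3 or ICH+P7C3-A20 1.

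Matrix and its enzymes changed in part. Of 20 matrix proteases and inhibitors 11 fell and none rose (median -1.20), and calls numbered 4 without ICH 1 or 3, 3 without ICH 2, 5 without ICH+P7C3-A20 1 and 7 without ICH+P7C3-A20 2. Adam8, a protease of myeloid cells, changed by -1.64 ± 0.24, Adamts1 by -1.24 ± 0.21 and the membrane-bound collagenase gene Mmp14 by -0.90 ± 0.17 (edgeR adjusted p up to 0.0123; Mmp14, 0.0573 without ICH 2). Of 21 collagen and fibroblast genes 5 fell (median -0.24), among them the basement membrane gene Col4a1, at 177, 181 and 210 CPM in ICH and 81.3, 96.6 and 100 CPM in ICH+P7C3-A20 (-1.03 ± 0.14, edgeR adjusted p = 0.0064). Its call held in every left-out fit, while list calls numbered 3 without ICH 1 or 3 or ICH+P7C3-A20 1 and 2 without ICH 2. Of 14 mural cell genes 3 fell, the proteoglycan gene Cspg4 (-0.72 ± 0.12), Tagln (-1.65 ± 0.28) and Des (-0.83 ± 0.21), with edgeR adjusted p of 0.00828, 0.00856 and 0.0382 (Des, 0.0589 to 0.136 without ICH 1, 2 or 3 or ICH+P7C3-A20 1, 2 or 3).

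RNA of the machinery of cell division was lower in treated brain. Mitotic genes are read almost only in dividing cells, which after injury are mainly microglia, invading cells, endothelium and glial precursors, and 23 of 25 fell (median -1.49). Prc1, which bundles the microtubules of the midzone, read 4.33, 5.65 and 5.46 CPM in sham, 45.9, 40.2 and 44.1 CPM in ICH and 9.79, 15.3 and 19.2 CPM in ICH+P7C3-A20 (-1.55 ± 0.22, edgeR adjusted p = 0.00636). The kinase genes Plk1 and Aurka and the spindle gene Tpx2 changed by -1.52 ± 0.21, -1.38 ± 0.21 and -1.57 ± 0.24 (edgeR adjusted p up to 0.00731), and all 4 calls held in every left-out fit. Of 24 replication genes 11 fell (median -1.18), among them the helicase gene Mcm6 (-1.21 ± 0.17), the sliding clamp gene Pcna (-0.94 ± 0.16), the nucleotide reductase gene Rrm1 (-1.04 ± 0.16) and Mcm4 (-0.88 ± 0.13), with edgeR adjusted p up to 0.00843. Lower calls numbered 14 without ICH 1 or 3 and 15 without ICH 2 for mitosis and 6 without ICH 1 and 5 without ICH 2 or 3 for replication.

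The stretches before the start of 2 mitotic genes are shown because many promoters of the list hold the CHR element, by which the MuvB complexes time late cell cycle genes. Capitals mark TTTGAA or TTCGAA on either strand, and the genes were taken by the same rule as the interferon genes.
Bub1b (chr2:118597961-118598210, plus strand): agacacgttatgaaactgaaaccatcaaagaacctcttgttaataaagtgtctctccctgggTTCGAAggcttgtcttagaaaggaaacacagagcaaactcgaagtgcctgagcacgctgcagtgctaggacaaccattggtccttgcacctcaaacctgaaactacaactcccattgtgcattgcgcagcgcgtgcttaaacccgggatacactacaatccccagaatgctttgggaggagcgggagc
Kif11 (chr19:37376132-37376381, plus strand): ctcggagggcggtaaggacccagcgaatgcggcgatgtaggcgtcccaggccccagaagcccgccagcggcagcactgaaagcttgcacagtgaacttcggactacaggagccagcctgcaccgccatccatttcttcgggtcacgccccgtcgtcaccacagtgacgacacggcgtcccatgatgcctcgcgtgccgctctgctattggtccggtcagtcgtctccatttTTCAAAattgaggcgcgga
The match ended 182 bases before the start in Bub1b and 13 bases before it in Kif11, and neither overlapped another of the motifs searched. Of the 20 mitosis genes with a window 16 held such a match (80.0%), against 17.2% of all genes with a window, 22.1% of those called lower, 15.6% of those called higher and 15.8% of the replication genes. Bub1b, a checkpoint kinase gene, changed by -1.30 ± 0.21 and the spindle motor gene Kif11 by -1.49 ± 0.28 (edgeR adjusted p 0.00739 and 0.0114).

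Genes of cell stress and death were lower in part. Of 24 antioxidant and ferroptosis genes 10 fell and none rose (median -0.37), and calls numbered 6 without ICH 1. The metal-binding gene Mt2 read 301, 268 and 273 CPM in ICH and 92.9, 135 and 141 CPM in ICH+P7C3-A20 (-1.19 ± 0.16, edgeR adjusted p = 0.00636), and Slc3a2, Prdx6 and Gpx1 changed by -0.60 ± 0.09, -0.88 ± 0.14 and -0.81 ± 0.13 (edgeR adjusted p up to 0.00828). Of 22 BCL2 family and caspase genes 6 fell, and calls numbered 3 without ICH 1 or 3 or ICH+P7C3-A20 1 and 1 without ICH 2. They included the survival gene Mcl1 (-0.64 ± 0.09) as well as Casp12 and Casp8 (-1.43 ± 0.28 and -1.23 ± 0.24), with edgeR adjusted p up to 0.0148, so members that oppose and members that carry out cell death were both lower. The calls of Casp12 and Casp8 ended at 0.0655 without ICH 2 and 0.0511 without ICH+P7C3-A20 1 and at 0.0527 to 0.0595 without ICH 1, 2 or 3.

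The few calls in the next lists are to be read against the 6.05% of all tested genes called lower. Of 18 p53 targets 2 fell, the cell cycle inhibitor gene Cdkn1a, at 49.5, 56.1 and 46.5 CPM in ICH and 25.5, 20.5 and 26.4 CPM in ICH+P7C3-A20 (-1.07 ± 0.13, edgeR adjusted p = 0.00596), and Ccng1 (-0.49 ± 0.11, edgeR adjusted p = 0.0203; 0.0556 to 0.0956 without ICH 1 or 2 or ICH+P7C3-A20 1 or 3). The call of Cdkn1a held in every left-out fit. Of 19 genes of the unfolded protein and integrated stress responses 4 fell, led by the stress factor gene Atf3, at 12.7, 14.3 and 17.1 CPM and 2.04, 5.87 and 2.70 CPM (-2.05 ± 0.35, edgeR adjusted p = 0.00868). Calls of that list numbered 1 without ICH 1, 2 or 3 or ICH+P7C3-A20 1 or 3. Of 15 heat shock genes 2 fell, Hspb8 (-1.11 ± 0.17) and Hspa1b (-0.96 ± 0.23; 0.0761 to 0.114 without ICH 1, 2 or 3 or ICH+P7C3-A20 1 or 3; uncertain because Hspa1a is a near-identical copy), and Dnajb5 rose (0.61 ± 0.16; 0.0726 to 0.143 without ICH 1, 2 or 3 or ICH+P7C3-A20 1 or 3). Their edgeR adjusted p was 0.00684, 0.0321 and 0.0407. Of 23 glycolysis and hypoxia genes 3 fell, Slc2a1, the hexokinase gene Hk2 (-1.40 ± 0.26; 0.0506 without ICH 3) and the lactate carrier gene Slc16a3 (-1.38 ± 0.32; 0.0594 to 0.0954 without ICH 1, 2 or 3 or ICH+P7C3-A20 3), with edgeR adjusted p up to 0.0269. Lower p53 calls numbered 1 without ICH 1 or 2 or ICH+P7C3-A20 1 or 3 and 4 without ICH+P7C3-A20 2 or sham 3. Lower heat shock calls numbered 1 without ICH 1, 2 or 3 or ICH+P7C3-A20 1 or 3. Lower glycolysis and hypoxia calls numbered 1 without ICH 2 or 3.

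In NAD synthesis, to which the compound has been linked, few genes were called. Nampt read 54.1, 55.4 and 53.7 CPM in sham, 63.9, 68.7 and 72.9 CPM in ICH and 49.4, 56.1 and 47.2 CPM in ICH+P7C3-A20 (ENSMUSG00000020572, chr12:32819545-32853349). It was lower with the compound, with a log2 change of -0.43 ± 0.10 (edgeR adjusted p = 0.0229), and treated and untreated animals did not overlap, while treated and sham animals did. The level was 1.35-fold lower, and its call ended at 0.0526 to 0.101 without ICH 1, 2 or 3 or ICH+P7C3-A20 1 or 3 and with limma on log2(FPKM + 1), where the log2 change was -0.44 (adjusted p = 0.116). Of 16 genes of NAD synthesis Nampt was the only one called (6.25% of the list against 8.74% of all tested genes), the median was -0.31, and unadjusted p fell under 0.05 for 3 lower genes and 1 higher gene. The axonal enzyme gene Nmnat2 read 60.5, 72.1 and 58.0 CPM in ICH and 104, 75.2 and 78.3 CPM in ICH+P7C3-A20 (0.43 ± 0.16, edgeR adjusted p = 0.13).

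Of 16 genes listed as NAD consumers 3 fell and none rose (median -0.10), a larger share than the 6.05% of all tested genes called lower. All 3 encode ADP-ribosyltransferases: Parp9, at 16.7, 27.7 and 25.2 CPM in ICH and 7.96, 7.38 and 8.44 CPM in ICH+P7C3-A20 (-1.55 ± 0.22), Parp14 (-1.65 ± 0.26) and Parp3 (-1.19 ± 0.29), with edgeR adjusted p of 0.0064, 0.00734 and 0.0331. Parp9 and Parp14 are interferon-induced genes, and their calls held in every left-out fit, while that of Parp3 ended at 0.0827 to 0.109 without ICH 1, 2 or 3.

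**Figure D5:**
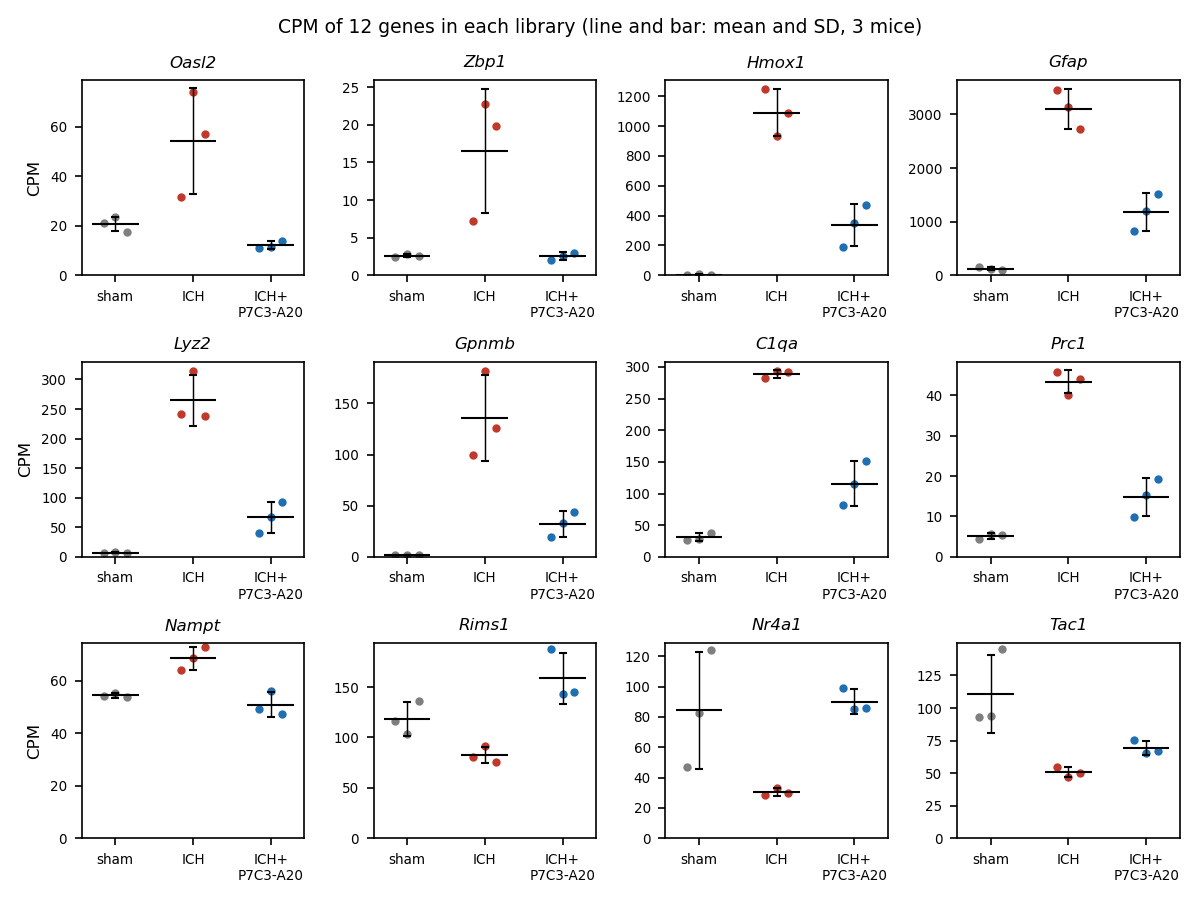
CPM of 12 genes in each library (points), with the mean and SD of 3 mice per group as line and bar, and vertical axes that start at 0. Treated values of Oasl2 lie under all sham values, those of Hmox1, Gfap, Lyz2, Gpnmb, C1qa and Prc1 lie between sham and ICH, Nampt differs by 1.35-fold, Rims1 and Nr4a1 are higher than in ICH, and the striatal gene Tac1 (0.45 ± 0.16) was not called.

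Some synaptic and ion channel genes were higher with the compound. Of 23 pan-neuronal and presynaptic genes 6 rose and none fell (median 0.66, and 0.35 without ICH+P7C3-A20 1), against 2.69% of all tested genes called higher. Rims1 read 116, 103 and 136 CPM in sham, 80.9, 91.8 and 76.1 CPM in ICH and 188, 143 and 145 CPM in ICH+P7C3-A20, above ICH in every treated animal and above sham in all 3. The dendritic microtubule gene Map2 read 624, 703 and 597 CPM in ICH and 1215, 867 and 953 CPM in treated brain (0.66 ± 0.15, edgeR adjusted p = 0.0253), and the neuronal nuclear gene Rbfox3 136, 124 and 117 CPM and 229, 153 and 188 CPM (0.59 ± 0.15, edgeR adjusted p = 0.0407). In both, ICH+P7C3-A20 1 was the highest and the untreated animals were closely grouped. The calls ended for Map2 at 0.0613 to 0.107 without ICH 1, 2 or 3 or ICH+P7C3-A20 1 and for Rbfox3 at 0.083 to 0.147 without ICH 1, 2 or 3 or ICH+P7C3-A20 1 or 3. List calls numbered 1 without ICH 1, 2 or 3 or ICH+P7C3-A20 1 and 10 without ICH+P7C3-A20 2.

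Of 22 postsynaptic and receptor genes 5 rose and none fell (median 0.57). Calls numbered 1 without ICH 1 or 3, ICH+P7C3-A20 1 or sham 1, 2 without ICH 2 or ICH+P7C3-A20 3, 8 without ICH+P7C3-A20 2 and 13 without sham 3. Camk2a, the kinase of excitatory synapses, read 1217, 1697 and 1208 CPM in ICH and 3187, 1818 and 2445 CPM in ICH+P7C3-A20 (0.85 ± 0.23, edgeR adjusted p = 0.0435), a call that ended at 0.0593 to 0.162 without ICH 1, 2 or 3, ICH+P7C3-A20 1 or 3 or sham 1. Untreated ICH 2, at 1697 CPM, came close to the lowest treated library. The scaffold gene Shank2 and the AMPA receptor gene Gria2 changed by 0.71 ± 0.18 and 0.64 ± 0.16 (edgeR adjusted p 0.035 and 0.0375; Shank2, 0.0511 to 0.134 without ICH 1 or 3, ICH+P7C3-A20 1 or sham 1; Gria2, 0.0557 to 0.128 without ICH 1, 2 or 3, ICH+P7C3-A20 1 or 3 or sham 1). Of 24 voltage-gated channel genes 9 rose and none fell (median 0.50). Calls numbered 0 without ICH 1 or 3, 1 without ICH 2 or ICH+P7C3-A20 1, 5 without ICH+P7C3-A20 3 and 4 without sham 1. They were led by the calcium channel genes Cacna2d1, Cacna1e, Cacna1a and Cacna1b (0.81 ± 0.18, 0.70 ± 0.16, 0.57 ± 0.13 and 0.58 ± 0.14, edgeR adjusted p up to 0.0287), and their calls ended at 0.0596 to 0.0906 without ICH 1, 2 or 3, at 0.0837 to 0.102 without ICH 1, 2 or 3 or ICH+P7C3-A20 1, at 0.0646 to 0.108 without ICH 1 or 3 or ICH+P7C3-A20 1 or 3 and at 0.0506 to 0.12 without ICH 1, 2 or 3 or ICH+P7C3-A20 1.

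Genes of cortical neurons and of striatal neurons are given beside sham as a description, with no test. The cortical list, relative to its ICH mean on the log2 scale, stood at -0.03, -0.01 and 0.04 in untreated ICH brain, at 1.28, 0.60 and 0.79 with P7C3-A20 and at -0.07, -0.58 and 0.71 in sham brain. The striatal list stood at 0.10, -0.11 and 0.01 in untreated ICH brain, at -0.19, 0.19 and 0.29 with P7C3-A20 and at 0.73, 0.50 and 1.20 in sham brain. Treated brain was thus above ICH in all 3 libraries for cortical genes, but overlapped ICH for striatal genes, whose treated mean was below the sham mean for all 16 members. Of 18 cortical genes edgeR called 1 higher, Mef2c (0.95 ± 0.24, 0.59 without ICH+P7C3-A20 1; edgeR adjusted p = 0.0339; 0.0513 to 0.126 without ICH 1, 2 or 3, ICH+P7C3-A20 1 or sham 1), and Tbr1 changed by 1.81 ± 0.52 without passing the test (edgeR adjusted p = 0.0663), and by 1.14 without ICH+P7C3-A20 1 (0.208). Of 16 striatal genes edgeR called 0 (1 at an unadjusted p under 0.05 and 0 by DESeq2), and Tac1, the substance P gene, went from 54.8, 47.4 and 49.8 CPM in ICH to 75.2, 65.7 and 66.7 CPM in ICH+P7C3-A20 (0.45 ± 0.16, edgeR adjusted p = 0.117). Of all tested genes 2.69% were called higher and 6.05% lower, so the 1 cortical and 0 striatal calls are near those shares. The striatum is the common site of experimental ICH in mice, but the labels do not give the site.

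Markers of other regions and cell types varied between the same libraries. The summed level of cortical genes was 2304, 1080 and 1275 CPM in ICH+P7C3-A20 1, 2 and 3 and 791 to 854 CPM in ICH, that of myelin genes 6838, 13582 and 13679 CPM and 15800 to 19400 CPM, and that of choroid plexus genes 1181, 3041 and 345 CPM and 2076, 292 and 4905 CPM. ICH+P7C3-A20 1 was thus highest in cortical and lowest in myelin genes, and choroid plexus genes varied widely within both groups. No tested member of these 3 lists was at 0 in a whole group. Cortical calls numbered 0 without ICH 1, 2 or 3, ICH+P7C3-A20 1 or sham 1, 2 without ICH+P7C3-A20 2 or sham 2 and 4 without sham 3. The part of such differences in tissue makeup in the rise of neuronal genes was not tested.

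Immediate early genes, which active neurons transcribe within minutes, were higher in part. Of 20 members 4 rose and 1 fell (median 0.76). Nr4a1 read 46.9, 82.7 and 124 CPM in sham, 28.5, 33.4 and 29.9 CPM in ICH and 99.4, 85.1 and 86.1 CPM in ICH+P7C3-A20 (ENSMUSG00000023034, chr15:101254269-101274795; 1.56 ± 0.27, edgeR adjusted p = 0.00997). Egr1 read 149, 139 and 124 CPM in ICH and 297, 233 and 258 CPM in treated brain (0.94 ± 0.16, edgeR adjusted p = 0.00829), and Egr3 changed by 0.86 ± 0.16 (0.0111; 0.0504 without ICH 3). The rises of Nr4a1 and Egr1 held in every left-out fit, with treated animals close together rather than led by 1 of them. The fall was that of Jun (-0.67 ± 0.12, edgeR adjusted p = 0.0115; 0.054 without ICH 2 and 0.0502 without ICH 3), which injury also induces. Higher calls numbered 2 without ICH 3 and 7 without sham 1 or 3, and lower calls 0 without ICH 2 or 3.

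Genes of neurogenesis and trophic support, of interest because of the origin of the compound, showed few calls. Of all tested genes 2.69% were called higher and 6.05% lower, and each list given here had a larger share called higher. With 1 library left out, higher calls in each numbered as few as 0. Of 19 neurogenesis genes Dcx, which marks migrating young neurons, rose and Nes, also an astrocyte injury gene, fell. Dcx read 42.2, 35.8 and 31.0 CPM in sham, 28.0, 25.9 and 29.1 CPM in ICH and 52.4, 44.1 and 38.5 CPM in ICH+P7C3-A20 (0.70 ± 0.14, edgeR adjusted p = 0.0164), and the call ended at 0.0508 to 0.0702 without ICH 1, 2 or 3 or ICH+P7C3-A20 1 and with limma on log2(FPKM + 1). Nes changed by -1.50 ± 0.24 (0.00764). Of 18 neurotrophic factor and receptor genes the neurturin receptor gene Gfra2 and the neurotrophin-3 receptor gene Ntrk3 rose (0.79 ± 0.16 and 0.52 ± 0.13, edgeR adjusted p 0.0174 and 0.0309; Gfra2, 0.0653 to 0.077 without ICH 1 or 3 or ICH+P7C3-A20 1; Ntrk3, 0.0739 to 0.124 without ICH 1, 2 or 3 or ICH+P7C3-A20 1 or 3). The neurotrophin gene Bdnf, at 0.99 ± 0.41, did not pass the test (edgeR adjusted p = 0.164), and its change was 0.40 without ICH+P7C3-A20 1 (0.635). Of 12 interneuron genes Vip and the matrix protein gene Reln rose (1.78 ± 0.45 and 0.58 ± 0.14), and the calls ended at 0.054 to 0.144 without ICH 1, 2 or 3 or ICH+P7C3-A20 1 or 3 and at 0.0515 to 0.125 without ICH 1, 2 or 3 or ICH+P7C3-A20 1, 2 or 3.

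Oligodendrocyte genes leaned lower without many calls. Of all tested genes 6.05% were called lower. The myelin share was larger, with 0 calls without ICH 1, 2 or 3, and the precursor share was near it. All 18 myelin genes had a log2 change under 0 (median -0.56), yet edgeR called 2, transferrin (Trf, -1.54 ± 0.35, edgeR adjusted p = 0.0244; 0.0536 to 0.0893 without ICH 1, 2 or 3 or ICH+P7C3-A20 3), which is also an iron carrier, and Cldn11 (-0.95 ± 0.26, edgeR adjusted p = 0.0453; 0.0509 to 0.149 without ICH 1, 2 or 3, ICH+P7C3-A20 1 or sham 1, 2 or 3). Myelin genes relative to ICH stood at -1.35, -0.33 and -0.44 in ICH+P7C3-A20 1, 2 and 3, lowest in the first, and at -0.60, -0.25 and -0.53 in sham. Of 14 precursor genes edgeR called 1 lower, Cspg4, which pericytes share.

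Several groups gave no call. Over all tested genes 8.74% were called, so 0 calls in lists of 13 to 25 genes are near that share. For cholesterol synthesis, which myelin and synapses need, edgeR called 0 of 19 (4 at an unadjusted p under 0.05 and 0 by DESeq2; median 0.05), and the gene with the smallest p, Lss, changed by 0.31 ± 0.11. For the nuclear-encoded respiratory chain it called 0 of 25 (0 at an unadjusted p under 0.05 and 0 by DESeq2; median -0.03), and for the mitochondrially encoded genes 0 of 13 (0 and 0; median 0.34), whose level varied with the library. For thalamic and hypothalamic genes it called 0 of 18 (1 at an unadjusted p under 0.05 and 0 by DESeq2; median 0.03), and for choroid plexus genes 0 of 15 (0 and 0; median -0.67, and -1.49 to 0.42 with 1 library left out, positive without ICH 3). Members of the respiratory chain list had errors of 0.09 to 0.24 on the log2 scale, so changes as small as these errors could not have been detected in it.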

How the data were processed

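PolyA-selected RNA of 9 mouse brains was sequenced as strand-marked libraries. The deposited table held, per gene, the authors' whole-number estimated counts and the authors' FPKM values, per the file headers. cutadapt 1.9, HISAT2 2.0.4 and StringTie 1.3.4d are named in the submitters' processing notes. Neither the genome build nor the counting step is given in the sources used here. Of 35112 genes, 32009 have the position that GENCODE M21 (GRCm38) gives them. Reads are not marked by molecule, so floors cover counting error only.

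Counts were tested with edgeR 4.0.16 (quasi-likelihood, robust, TMM, filterByExpr with a minimum count of 10 and total of 15) in R 4.3.3. All 9 libraries entered the fit with 3 group means and 6 residual degrees of freedom, so that the groups share 1 estimate of the spread. A gene was called at a Benjamini-Hochberg adjusted p under 0.05 over all 21900 tested genes, in 2-sided tests. Values after ± are SDs for CPM and standard errors for log2 changes. These errors were derived from the test, as the absolute log2 change divided by the square root of the edgeR F statistic. The FPKM values were tested with limma 3.58.1 on a log2 scale, and DESeq2 1.42.0, other scalings, filters, library weights, a replicate block and left-out libraries were tried. The fit was tested on simulated data.

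Genes were named by rule. From called genes whose groups do not overlap, whose symbol is not clone-like and whose FPKM averages 2 or more in either group, the 12 largest and 12 lowest log2 changes and, per direction, the 8 smallest p were taken. Each list gave its 4 genes of smallest p, and 6 genes were fixed. A few genes that the rule names are not reported here. Genes with a printed sequence were chosen by the rule given beside it. The members, although taken by label, and the lists were chosen with earlier results of these data known. Of the list genes, 870 of 871 were matched by symbol, and of the tested genes 14134 had a RefSeq promoter window (GRCm38.p6).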

Additional observations from a re-analysis of the deposited data

How the results depend on the processing

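No called value of a named gene reversed its direction under any alternative. Medians of the lists for cholesterol synthesis, the respiratory chain, mitochondrially encoded, thalamic, choroid plexus, neutrophil and neurotrophic genes, with 0 to 2 calls each, changed sign under at least 1 alternative. DESeq2 called 3476 genes (1329 higher, 2147 lower) and limma voom with library weights 3051 (1063 higher, 1988 lower), against 1914 (590 and 1324) by edgeR. limma on log2(FPKM + 0.1) called 1250 genes, 186 of them higher, and limma on log2(FPKM + 1) called 214 genes higher, against 760 higher and 1491 lower on quantile-normalized log2(FPKM + 1). Leaving out 1 library gave 571 to 2695 called genes, 79 to 968 higher and 465 to 1727 lower, with fewer samples in each fit. Upper-quartile scaling gave 815 higher and 1190 lower genes. Of 170 called named genes, 92 passed the test in every alternative and 132 in every alternative that kept all libraries. Most losses came without ICH 2 (68 genes), ICH 1 (55), ICH 3 (53) and ICH+P7C3-A20 1 (44). With the replicate number as a block edgeR called 1697 genes (480 higher, 1217 lower) and 11 named genes lost their call. Deviations of same-numbered ICH and ICH+P7C3-A20 libraries correlated at 0.035, -0.128 and -0.108, and those of differently numbered ones at -0.078 to 0.192. With 3 libraries a group these values cannot decide whether the numbers pair the samples. With 3 mice a group, small changes and genes of few counts could not be resolved.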

Other observations

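Gene families were also counted by the stem of the symbol, over 301 stems with at least 8 tested genes. The stems described here were chosen after their values were seen and were not tested as groups. Their counts stand against 6.05% of all tested genes called lower and 2.69% called higher. edgeR called 13 of 18 interferon-inducible Ifi genes lower (median log2 change -2.17), and 7 of 10 guanylate-binding Gbp genes, whose close copies make single members uncertain. It also called lower 5 of 8 Schlafen (Slfn) genes, 4 of 9 genes with the stem Lgals, which holds galectins, a galectin-binding protein gene and a pseudogene, and 4 of 11 annexin (Anxa) genes. Without ICH 2 the lower calls numbered 4 for Ifi, 4 for Gbp, 2 for Slfn and 1 for Anxa, and without ICH 3 they numbered 7, 4, 2 and 1. Ifi calls numbered 8 without ICH+P7C3-A20 3. Among stems of neuronal signalling, higher calls numbered 4 of 10 genes with the stem Camk, which holds kinases and inhibitors of a kinase, 4 of 13 Scn sodium channel genes, 4 of 14 Cacna calcium channel genes and 4 of 17 synaptotagmin (Syt) genes. Without ICH 1, ICH 2, ICH 3 or ICH+P7C3-A20 1 each of these 4 stems had 0 or 1 higher call. Without ICH+P7C3-A20 2 they had 2, 4, 4 and 6, without ICH+P7C3-A20 3 1, 4, 3 and 3, and without sham 1 1, 2, 4 and 2, while without sham 3 Scn had 6. The stems Unc and Septin, with 5 of 18 and 3 of 12 genes called higher, had larger shares than Syt. On the lower side the stems Mcm, Ms and Tlr, with 7 of 10, 5 of 8 and 6 of 11 genes called, had larger shares than Lgals. The stems Irf, Itgb and Parp (41.7% each), Tmed (40.0%) and Tnfaip (37.5%) had larger shares than Anxa (36.4%).

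By annotated class, 529 of 16245 protein-coding genes were called higher and 1287 lower, whereas of 2612 lincRNA or antisense genes 32 were called higher and 14 lower. Of 1775 pseudogenes 17 were higher and 20 lower, and these can share reads with their parent genes. The difference in balance between the classes was not tested.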
